A study of Homo sapiens with 9 samples.

Results

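The BCL2 family decides at the mitochondrion whether a cell starts apoptosis, and 10 of its genes were followed here in TC32 cells, an established Ewing sarcoma line. They were taken by gene name from the expression tables: the antiapoptotic genes BCL2, BCL2L1 (BCL-XL) and MCL1, the effectors BAX and BAK1, and the BH3-only genes BCL2L11 (BIM), BBC3 (PUMA), PMAIP1 (NOXA), BMF and HRK. All 10 were found among 58233 gene IDs, and all 10 were among the 17880 genes that passed the filter on low counts. RNA sequencing covered 3 groups of 3 libraries, all from TC32 cells grown in medium with fetal bovine serum. Vehicle cells had PBS for 4 h and then DMSO for 24 h. Wnt3a cells had the ligand for 28 h in all, with DMSO over the last 24 h. Inhibitor cells had Wnt3a for the same 28 h and SB-505124, which inhibits the receptor kinases ALK4, ALK5 and ALK7 that pass on TGF-β and activin signals, over the last 24 h. No group had the inhibitor without Wnt3a, so the inhibitor was seen only on top of the ligand. All groups are 1 cell line, and nothing in the labels sets replicates apart as cultures of their own. The p-values therefore refer to the scatter of these libraries, part of which could be technical.

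Effectors such as BAX and BAK1 make pores in the outer mitochondrial membrane, through which cytochrome c leaves and starts the caspase cascade. Antiapoptotic members bind and hold the effectors, and BH3-only proteins, which act as stress sensors, occupy the groove of the antiapoptotic members or activate the effectors directly. The balance is set by transcription for some members (BCL2L11 is a textbook FOXO target) and largely by protein turnover for others, such as MCL1. The data are RNA levels and say nothing of protein amount, of binding or of cell death.

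The shared feature of the family is the BH3 motif, a short helix with a fixed leucine and, further on, a small residue followed by aspartate. A search of the coding sequences for leucine, any 3 residues, glycine or alanine, and aspartate at the set spacing (residues 1, 5 and 6) found exactly 1 match in each of the 10 members. The pattern alone is not specific, since 4853 of 19548 protein-coding genes (24.8%) hold it. The 27 bases around it are shown for the 6 members whose RNA changed in both inhibitor comparisons, 5′ to 3′ on the coding strand, from transcripts of GENCODE 29 on hg38, with the 3 fixed codons in capitals.
BCL2L1, chr20:31721928-31721954 (minus strand, exon 2): gcgCTGagggaggcaGGCGACgagttt
BAX, chr19:48955784-48955810 (plus strand, exon 3): tgtCTCaagcgcatcGGGGACgaactg
BAK1, chr6:33575393-33575419 (minus strand, exon 4): cagCTCgccatcatcGGGGACgacatc
BCL2L11, chr2:111150100-111150126 (plus strand, exon 4): gagTTGcggcgtattGGAGACgagttt
BBC3, chr19:47226585-47226611 (minus strand, exon 3): cagCTGcggcggatgGCGGACgacctc
BMF, chr15:40104201-40104227 (minus strand, exon 4): aagCTTcagtgcattGCAGACcagttc
BBC3 and BMF have an alanine codon at residue 5, and the other 8 members have glycine. Leaving out the barely detected HRK, BBC3, BMF and BCL2L11 had the largest log2 changes under the inhibitor relative to Wnt3a. All 3 encode proteins whose only family motif is BH3. The place of BCL2L11 ahead of the effector BAX was within error, at -0.88 ± 0.12 (SE) and 0.83 ± 0.11. With an offset for effective length the order was reversed, with BCL2L11 at -0.73 and BAX at 0.88. It was kept with library totals alone (-1.13 and 0.58) and on log2(TPM + 1) (-0.79 and 0.54).

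Libraries held 28844348 to 42976799 counts. Their replicates correlated at 0.983 to 0.995 across genes and differed beyond sampling noise. The inhibitor libraries had counts for 23279 to 23335 genes against 25201 to 26876 in the other 6, and their TMM factors were 0.876 to 0.914 against 1.02 to 1.10. Inhibitor replicate 1 stood apart from inhibitor replicates 2 and 3 on the second principal component (-42.2 against 16.7 and 15.4), and values without it are given where they matter. All 8 Ewing sarcoma markers were detected in every group, with a summed level of 3333 to 4650 CPM (counts relative to a library's total, scaled with TMM factors) in vehicle and Wnt3a and 2478 to 3080 with the inhibitor. Summed endothelial, leukocyte and epithelial markers did not pass 9.25 CPM in any library. The 6 leukocyte markers summed to 2.41 to 4.02 CPM in vehicle, 2.45 to 2.79 with Wnt3a and 5.37 to 9.25 with the inhibitor. Of these, CD68, a lysosomal protein abundant in macrophages, rose from a mean of 1.19 CPM with Wnt3a to 6.45 with the inhibitor (log2 2.44 ± 0.41; edgeR adjusted p = 0.000788), and the T cell gene CD3E had 0 counts in all 9 libraries. CD68 and CD3E were picked with their values known. The 7 fibroblast markers, several of which are matrix genes, summed to 391 to 629 CPM in vehicle, 455 to 778 with Wnt3a and 309 to 322 with the inhibitor. Their part in the results below was not tested.

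Levels of different genes were compared per transcript length, in TPM, which relates transcripts to the total of all transcripts. In vehicle cells BAX was highest at 249 ± 18.1 TPM (SD, n = 3), followed by MCL1 at 86.0 ± 23.0, BCL2L1 at 54.7 ± 1.03 and BMF at 25.2 ± 3.45 TPM. BAK1 and PMAIP1 followed at 12.4 ± 1.98 and 12.4 ± 1.73 TPM and overlapped. BBC3 stood at 8.04 ± 1.06 TPM, BCL2 at 5.60 ± 0.531 and BCL2L11 at 4.66 ± 0.590 TPM, of which the last 2 overlapped. HRK, with 29 counts over the 3 libraries, did not pass 0.08 TPM. BMF was thus the leading RNA among the BH3-only members followed here in vehicle cells, and BCL2 the lowest of the 3 antiapoptotic RNAs. BAD, a BH3-only gene outside these members, stood higher than BMF in vehicle, at 67.6, 81.9 and 59.6 TPM. The order of means of the members was the same with Wnt3a.

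**Figure D1:**
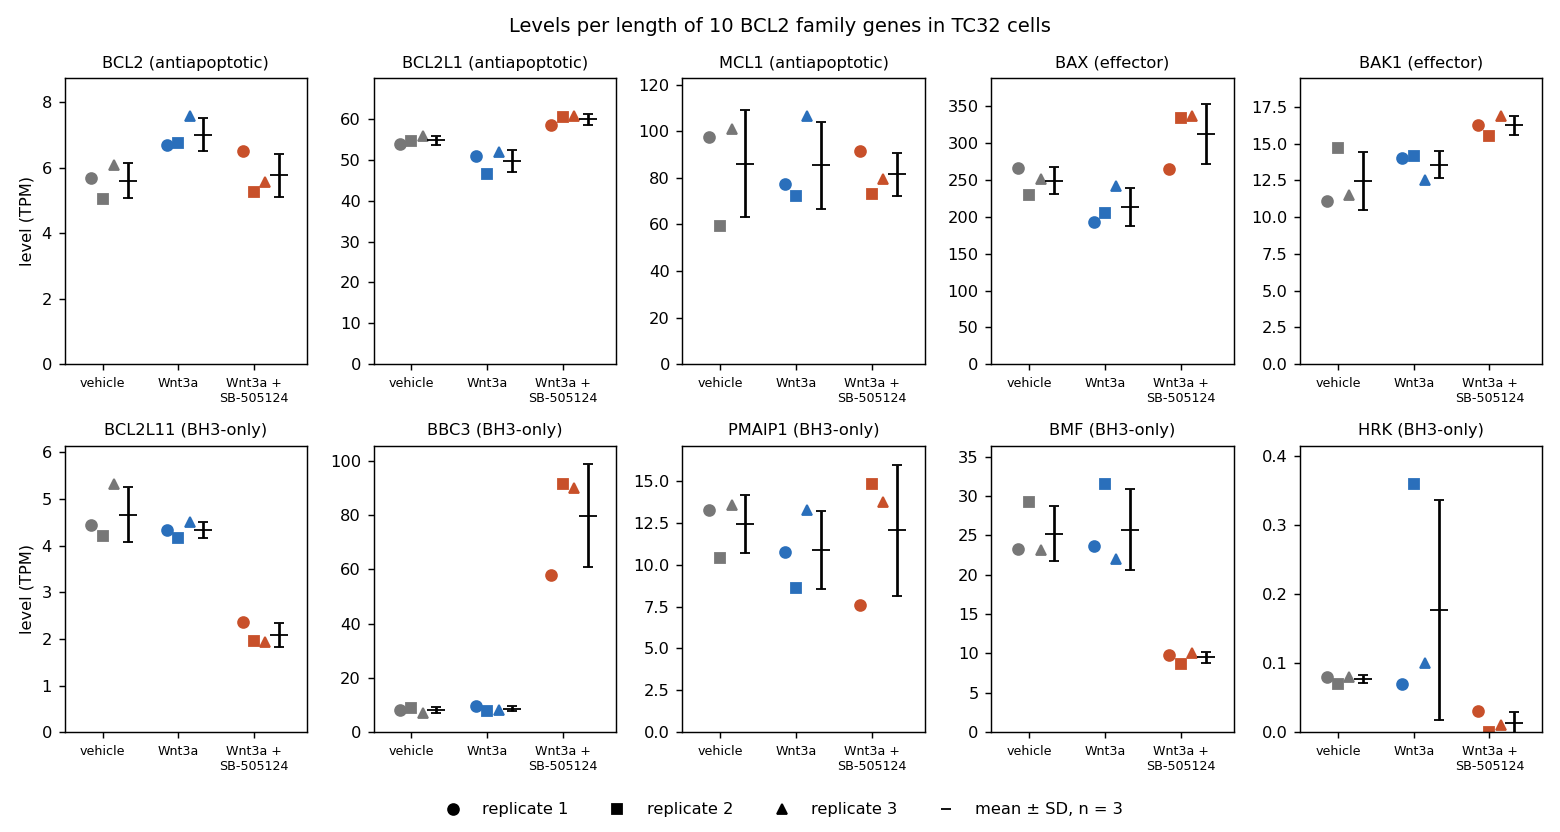
TPM of each of the 10 genes in every library (symbols: replicates 1 to 3), by group, with the mean and SD of 3 libraries beside them; each panel has its own axis from 0. BBC3 stands at 57.8 to 91.7 TPM in the inhibitor libraries and at 6.91 to 9.63 TPM in the other 6, BMF and BCL2L11 fall below all other libraries, and the MCL1 groups overlap.

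Wnt3a alone changed none of the 10 genes by the test used here (edgeR's quasi-likelihood test with Benjamini-Hochberg adjustment over all 17880 genes, threshold 0.05). Of all genes tested, 0.397% were called higher and 0.0224% lower in this comparison. DESeq2 and limma-voom also called 0 of the 10. By edgeR, 2 of the 10 genes had an unadjusted p under 0.05, as did 1362 of all 17880 genes tested. BCL2, the founding antiapoptotic gene, stood at 5.69, 5.03 and 6.08 TPM in vehicle and 6.69, 6.75 and 7.58 TPM with Wnt3a. The groups did not overlap, and the log2 fold change was 0.28 ± 0.13 (SE; edgeR adjusted p = 0.651). BCL2L1, the gene of BCL-XL, stood at 53.8, 54.6 and 55.8 TPM in vehicle and 50.8, 46.6 and 51.8 TPM with Wnt3a, lower in each library (log2 -0.22 ± 0.09; edgeR adjusted p = 0.560). The 95% interval for BBC3 ran from -0.56 to 0.44 on the log2 scale and that for MCL1 from -0.58 to 0.38.

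Adding the inhibitor to Wnt3a changed 7 of the 10 genes, 4 higher and 3 lower. Calls were common in this comparison, with 24.5% of all genes tested called higher and 25.9% lower, and the count of members is to be read against that background. The effectors BAX and BAK1, BCL2L1 and BBC3 rose, and BMF, BCL2L11 and the barely detected HRK fell. MCL1, BCL2 and PMAIP1 were not called. The median log2 fold change of the 10 was 0.36, beside -0.06 for all genes tested.

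BBC3 had the largest rise. Its protein, PUMA, binds all antiapoptotic members. BBC3 stood at 9.63, 7.86 and 8.29 TPM with Wnt3a and at 57.8, 91.7 and 90.0 TPM with the inhibitor, every inhibitor library far above every Wnt3a library. In CPM the means were 8.74 ± 0.453 and 106 ± 33.6, a 12.1-fold rise (log2 3.60 ± 0.24 SE; 95% interval 3.07 to 4.12; edgeR adjusted p = 4.60e-06). Inhibitor replicate 1, with 1769 counts against 4245 and 3780, was the lowest of the 3, and the highest count of any other library was 434. The call held in all 22 alternative analyses, at log2 3.05 to 3.84. Only 2 small RNA genes, MIR3190 and MIR3191, overlap BBC3, and neither reached 1 count in any group.

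BMF and BCL2L11 fell. BMF, whose protein is held at the actin cytoskeleton through a dynein light chain until released, stood at 23.6, 31.6 and 22.1 TPM with Wnt3a and 9.86, 8.70 and 10.0 TPM with the inhibitor. The groups were well apart, and the fall was 1.91-fold in counts (log2 -0.94 ± 0.15; edgeR adjusted p = 0.000526). BCL2L11, which encodes the activator BIM, went from 4.34, 4.16 and 4.50 TPM to 2.37, 1.95 and 1.93 TPM, a 1.84-fold fall in counts (log2 -0.88 ± 0.12; edgeR adjusted p = 0.000270). Both calls held in all 22 alternatives. BCL2L11 lies whole within MIR4435-2HG, a long noncoding gene on the opposite strand, whose counts were 1097 in vehicle, 1145 with Wnt3a and 3773 with the inhibitor. The kit marks strand, but the strand setting of the counting is not given in the sources used here, so reads of the pair may not have been told apart.

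PMAIP1, whose protein NOXA mainly targets MCL1, stood at 10.7, 8.60 and 13.3 TPM with Wnt3a and 7.60, 14.9 and 13.7 TPM with the inhibitor. The groups overlapped, with inhibitor replicate 1 the lowest of all 9 libraries in TPM. In CPM the lowest was Wnt3a replicate 2, at 8.48, with inhibitor replicate 1 at 10.0. The log2 fold change was 0.45 ± 0.27 (edgeR adjusted p = 0.184). Without inhibitor replicate 1 the log2 fold change was 0.70 and PMAIP1 passed the threshold (edgeR adjusted p = 0.0294). HRK, a BH3-only gene best known from neurons, had 11, 42 and 6 counts with Wnt3a and 4, 0 and 1 with the inhibitor. Its log2 fold change of -2.92 ± 1.02 passed (edgeR adjusted p = 0.0358), but the counts rest on Wnt3a replicate 2. Without that library it was -1.79 (edgeR adjusted p = 0.191), and the call was lost in 7 of 20 alternatives.

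Both effectors rose. BAX, the highest RNA of the 10, stood at 193, 206 and 243 TPM with Wnt3a and 265, 335 and 337 TPM with the inhibitor, with no overlap. In counts it rose 1.77-fold (log2 0.83 ± 0.11; edgeR adjusted p = 0.000187). BAK1, its partner that resides at the mitochondrion, went from 14.0, 14.2 and 12.5 to 16.3, 15.5 and 16.9 TPM, 1.53-fold in counts (log2 0.62 ± 0.13; edgeR adjusted p = 0.00271). With limma on log2(TPM + 1), which changes the test, the length correction and the scaling at once, BAK1 was not called (0.24, limma adjusted p = 0.146), and BAX was. With library totals alone BAK1 kept its call (log2 0.36; edgeR adjusted p = 0.0492). The processed pseudogene BAK1P1 was given 8.42 counts with Wnt3a and 18.0 with the inhibitor, against 2390 and 2587 for BAK1; how many reads fit both was not tested.

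Among the 3 antiapoptotic members, BCL2L1 alone was called. It stood at 50.8, 46.6 and 51.8 TPM with Wnt3a and 58.4, 60.5 and 60.8 TPM with the inhibitor, without overlap, and rose 1.53-fold in counts (log2 0.61 ± 0.09; edgeR adjusted p = 0.000257). The antisense gene ABALON, which overlaps 1903 bases of BCL2L1, had 167 counts with Wnt3a and 19.0 with the inhibitor. MCL1, an unstable protein on which many tumour cells depend, stood at 77.3, 72.1 and 107 TPM with Wnt3a and 91.4, 73.2 and 79.7 TPM with the inhibitor. The groups overlapped (log2 0.26 ± 0.21; 95% interval -0.22 to 0.74; edgeR adjusted p = 0.335). BCL2 was at 6.50, 5.24 and 5.55 TPM with the inhibitor, below all 3 Wnt3a libraries in TPM. In TMM-scaled counts its log2 fold change was -0.02 ± 0.13 (95% interval -0.30 to 0.26; edgeR adjusted p = 0.888). It was 0.05 with an offset for effective length and -0.27 with library totals alone, and neither was called.

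**Figure D2:**
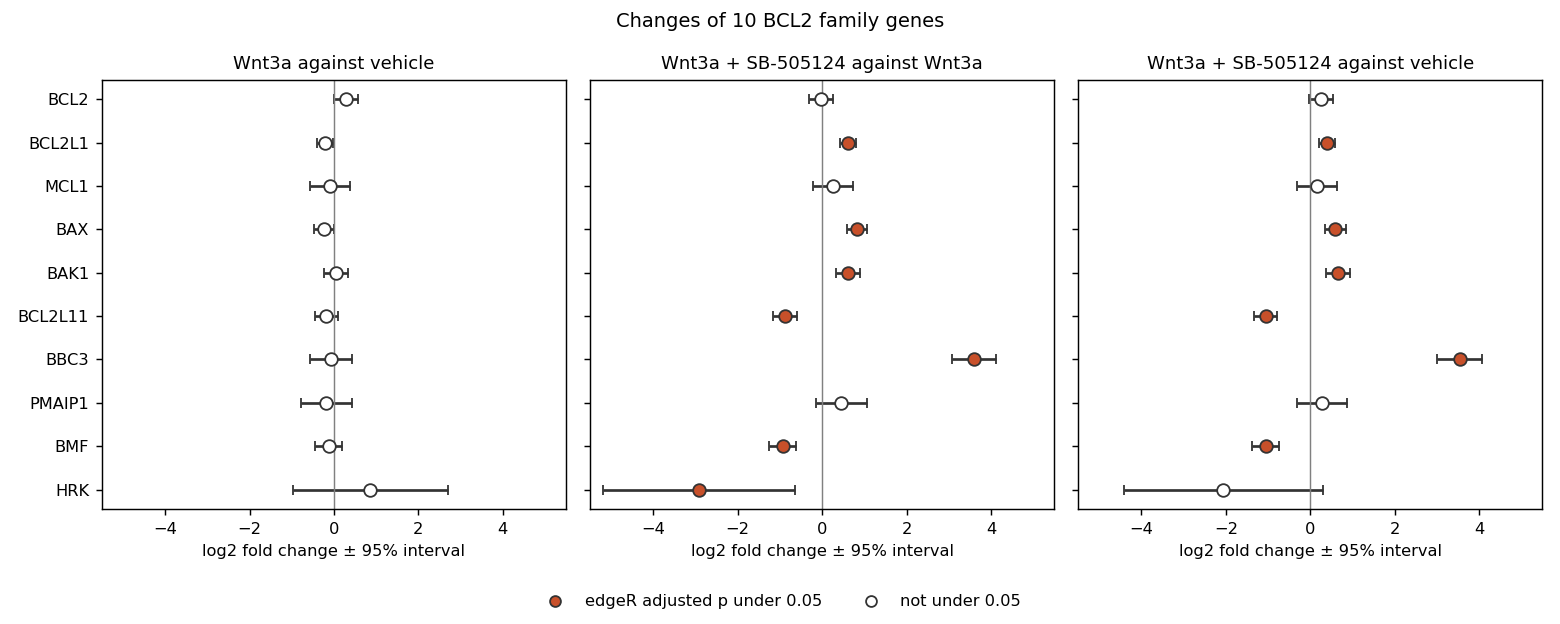
log2 fold change (x axis) with its 95% interval for each of the 10 genes in the 3 comparisons, which share libraries; filled points have an edgeR adjusted p under 0.05. No point is filled for Wnt3a against vehicle, and BBC3 lies at 3.60 and 3.54 in the inhibitor comparisons.

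Against vehicle, which asks what ligand and inhibitor did together, 6 of the 10 genes were called, 4 higher and 2 lower, while 25% of all genes tested were called higher and 24.8% lower. This comparison shares the inhibitor libraries with the one above, so the values are given side by side and are not a second observation. The log2 fold change of BBC3 was 3.54 against vehicle and 3.60 against Wnt3a. BAX was at 0.59 and 0.83, BAK1 at 0.66 and 0.62, and BCL2L1 at 0.40 and 0.61. BCL2L11 was at -1.06 and -0.88, and BMF at -1.06 and -0.94. HRK was at -2.06 against vehicle and was not called (edgeR adjusted p = 0.132). With limma on log2(TPM + 1), BAX and BCL2L1 were not called against vehicle, at 0.32 (limma adjusted p = 0.0563) and 0.13 (limma adjusted p = 0.194). With library totals alone BAX kept its call (log2 0.36; edgeR adjusted p = 0.00732) and BCL2L1 did not (log2 0.17; edgeR adjusted p = 0.0880).

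With library totals alone the median log2 fold change of all genes went from -0.06 to -0.31 against Wnt3a and from -0.04 to -0.27 against vehicle. The share of calls that were higher went from 48.6% to 30.6% against Wnt3a and from 50.2% to 33.6% against vehicle. It was 26.5% and 33.3% on log2(TPM + 1). The rise of BBC3 and the falls of BMF and BCL2L11 were called on each of these scales.

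The make-up of the RNAs of the 5 BH3-only members changed with BBC3. Their summed level was 50.4 ± 2.18 TPM in vehicle, 49.7 ± 2.46 with Wnt3a and 104 ± 22.4 with the inhibitor. BH3-only genes outside the 10 are not in this sum, so the shares below hold for the 5 members alone. Of these other genes, BAD stood at 63.3, 73.9 and 66.4 TPM with Wnt3a and 76.4, 108 and 119 TPM with the inhibitor. BID went the other way, from 15.3, 16.7 and 13.9 to 9.82, 7.72 and 9.64 TPM. BIK did not pass 0.31 TPM in any library. BBC3 made up 15.9% ± 1.60 of the sum of the 5 members in vehicle, 17.3% ± 2.48 with Wnt3a and 76.8% ± 2.08 with the inhibitor. BMF went from 49.9% ± 4.57 and 51.5% ± 7.56 to 9.59% ± 2.76. PMAIP1 made up 24.7%, 22.0% and 11.4%, and BCL2L11 9.28%, 8.74% and 2.13%. In the order of levels BBC3 moved from rank 7 of the 10 genes to rank 3, where its libraries overlapped those of MCL1 and BCL2L1. The sum of the 3 antiapoptotic members was 146 ± 23.7, 142 ± 21.2 and 147 ± 8.72 TPM in the 3 groups. MCL1 made up 58.0%, 59.7% and 55.2% of it, and BCL2L1 38.1%, 35.3% and 40.8%. BAX made up 94.0% to 95.2% of the effector sum in every group. These sums and shares are descriptions with no test.

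**Figure D3:**
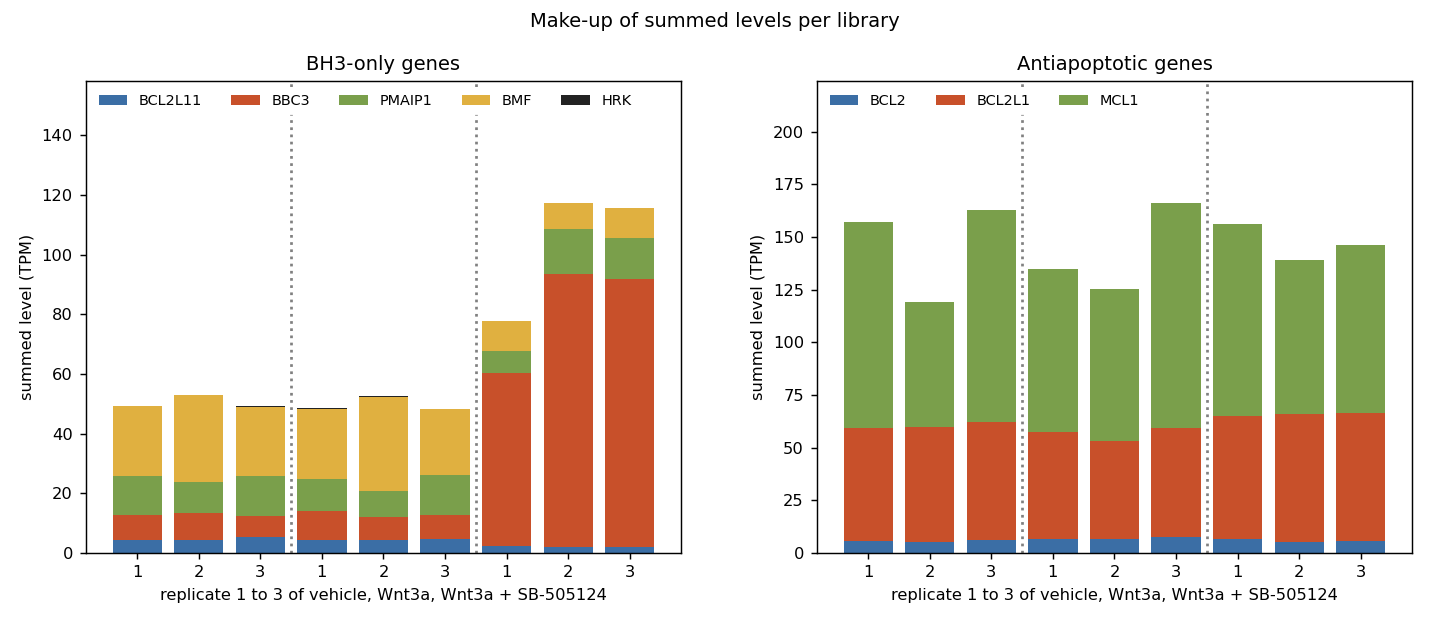
Summed TPM of the BH3-only members (left) and of the antiapoptotic members (right) in each of the 9 libraries, from 0, with 1 colour per gene. Dotted lines part the groups. BBC3 makes up 76.8% of the BH3-only sum on average with the inhibitor and 17.3% with Wnt3a, while the antiapoptotic bars differ more between replicates than between groups.

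The promoters of 3 of the 4 BH3-only members with called changes are printed from RefSeq (GRCh38.p14), since BCL2L11 and BMF fell while BBC3 rose. That of the barely detected HRK, which holds 2 GC boxes, is not printed. Each run is the part of the 250 bases before an annotated start that lies outside the gene's own annotated exons. It is given 5′ to 3′ on the gene's strand, with the motif matches in capitals. The BCL2L11 window lies inside the gene as GENCODE 29 gives it, which starts at base 111119378. Which start TC32 cells use was not tested. Motifs searched on both strands were the GC box GGGCGG, the E box CACGTG, the AP-1 site TGACTCA, the FOXO site GTAAACA, the TCF/LEF site CTTTGAT, the SMAD palindrome GTCTAGAC and TATAAA.
BBC3, chr19:47232767-47232917 (minus strand), 250 to 100 bases before the start: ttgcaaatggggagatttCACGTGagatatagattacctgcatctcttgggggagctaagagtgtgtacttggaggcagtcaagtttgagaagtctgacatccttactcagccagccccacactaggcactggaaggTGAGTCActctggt
BCL2L11, chr2:111120664-111120913 (plus strand), 250 bases to 1 base before the start: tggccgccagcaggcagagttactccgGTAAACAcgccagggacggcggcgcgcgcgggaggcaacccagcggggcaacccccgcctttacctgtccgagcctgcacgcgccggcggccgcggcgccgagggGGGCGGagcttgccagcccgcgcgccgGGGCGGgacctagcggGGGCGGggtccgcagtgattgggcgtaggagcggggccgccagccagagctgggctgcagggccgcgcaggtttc
BMF, chr15:40108893-40109129 (minus strand), 250 to 14 bases before the start: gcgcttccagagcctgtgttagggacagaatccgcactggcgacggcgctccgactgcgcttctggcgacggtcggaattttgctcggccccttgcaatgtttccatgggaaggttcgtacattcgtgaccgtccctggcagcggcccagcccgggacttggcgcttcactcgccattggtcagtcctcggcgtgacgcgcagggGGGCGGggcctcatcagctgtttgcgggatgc
The BBC3 window holds an E box at 232 and an AP-1 site, on the other strand, at 113 bases before the start. Among 35116 windows of the same length, 6.34% hold that E box and 4.20% that AP-1 site. BCL2L11 holds a FOXO site at 223 bases, found in 2.98% of windows, and 3 GC boxes. BMF holds 1 GC box, a motif found in 42.6% of windows. None of these 3 windows holds the TCF/LEF site (in 2.26% of windows) or the SMAD palindrome (0.182%), which says only that these letters are not there. Over the full 250 bases, which for BBC3 and BMF are more than the printed run, the BBC3 window has 49.2% G or C and 4 CpG. The window of the printed BMF start has 65.2% and 26, BCL2L11 76.8% and 34, and the median window 58.0% and 11. A second BMF start in the same table has 48.8% and 0 CpG, close to the BBC3 window, and none of the motifs. The windows are descriptions, not evidence of binding.

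BMF changed in transcript length as well as in level. The tables give each gene a length averaged over its transcripts by their estimated shares, and limma was run on log2 of that length over 14226 genes. For BMF this length was 4115, 4029 and 4050 bases with Wnt3a and 4568, 4343 and 4496 bases with the inhibitor, longer in each inhibitor library, by 9.93% (log2 0.14 ± 0.02; limma adjusted p = 0.0273). It was the 1 call among the 10 genes, and 3.97% of the genes tested were called. The call was not stable: it was lost without any 1 of the 3 Wnt3a libraries, without inhibitor replicate 1 or 3, without vehicle replicate 3 and with a replicate block, at limma adjusted p of 0.0513 to 0.0949. Against vehicle the length was 5.31% longer and not called (limma adjusted p = 0.171; 4% of genes called). For Wnt3a against vehicle limma called 0 of the 10, and 0% of all genes tested, with BMF at an unadjusted p of 0.0367. The log2 fold change of BMF against Wnt3a was -0.94 in TMM-scaled counts, -1.10 with an offset for effective length and -1.19 with library totals alone. Its mean went from 25.8 ± 5.11 to 9.53 ± 0.720 TPM, which carries no TMM factor, and from 67.9 ± 10.6 to 35.5 ± 3.27 CPM, which does.

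**Figure D4:**
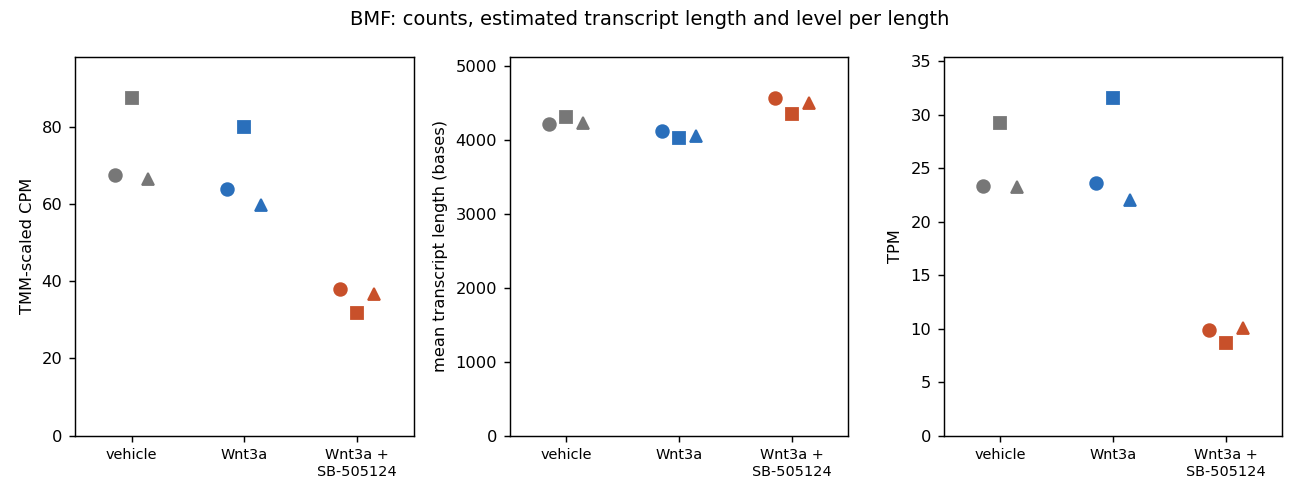
BMF in every library (symbols: replicates 1 to 3, as in the plot of TPM by gene): TMM-scaled CPM, mean transcript length in bases, and TPM, each axis from 0. The inhibitor libraries lie below all others in CPM and TPM and above all others in length.

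Genes around the 10 members were counted from 5 lists. Wnt3a alone gave 0 calls in any of them by edgeR. At an unadjusted p under 0.05 there were 1 of 14 in the death receptor list, 2 of 16 transcription factors and 2 of 12 turnover genes. The same held for 1362 of all 17880 genes tested. DESeq2 called 1, CASP10, an initiator caspase, which is named for that call (log2 0.70, DESeq2 adjusted p = 0.00622). Of all 17880 genes, DESeq2 called 247 higher and 52 lower.

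With the inhibitor relative to Wnt3a, 50.4% of all genes tested were called, 24.5% higher and 25.9% lower, and the counts of the lists stand beside that. Of 9 tested genes of the wider BCL2 family, 4 were higher and 3 lower (77.8% called). BCL2L2, the gene of the antiapoptotic BCL-W, rose from 20.4 ± 4.16 to 41.6 ± 2.96 CPM (log2 1.02; edgeR adjusted p = 0.000420). BAD, a BH3-only gene whose protein is switched off by phosphorylation, rose from 36.6 ± 3.33 to 65.5 ± 8.37 CPM (log2 0.84; edgeR adjusted p = 0.00107). BNIP3, a mitophagy receptor, rose from 40.2 ± 2.28 to 68.8 ± 4.47 CPM (log2 0.77; edgeR adjusted p = 0.000253). BCL2L15 fell from 62 counts to 5 over 3 libraries (edgeR adjusted p = 0.00284). Antiapoptotic and proapoptotic genes were thus both among those that rose.

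Downstream of BAX and BAK1, 7 of 17 genes were higher and 4 lower (64.7% called, against 50.4% of all genes), with a median log2 fold change of -0.05. CASP9, the initiator caspase of the apoptosome, rose 2.08-fold (log2 1.06; edgeR adjusted p = 0.000134). DIABLO, which frees caspases from their inhibitors, rose 1.79-fold, and VDAC2, a channel that recruits BAK1 to the outer membrane, 1.76-fold. BIRC3, a ubiquitin ligase of the inhibitor of apoptosis family, rose 5.86-fold from a low level of 1.01 ± 0.341 CPM. Library totals alone raised the number of lower genes in this list from 4 to 8.

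In the death receptor pathway 5 of 14 genes were higher and 2 lower, and the share called, 50%, was close to the 50.4% of all genes tested. The initiator caspase CASP8 fell from 23.1, 25.5 and 25.9 CPM to 8.20, 10.8 and 9.59 CPM, a 2.60-fold fall without overlap (log2 -1.38; edgeR adjusted p = 2.23e-05). RIPK1, a kinase of the TNF receptor complex, fell 1.93-fold. The receptors TNFRSF1A and TNFRSF10B rose 1.86-fold and 1.71-fold. With library totals alone 5 genes of this list were lower.

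Of 16 transcription factors reported to control BH3-only genes, 11 were higher and 1 lower (75% called, against 50.4% of all genes; median log2 0.69). DDIT3, the stress factor that also binds promoters of BH3-only genes, rose from 23.7, 18.7 and 30.5 to 175, 110 and 103 CPM (log2 2.41; edgeR adjusted p = 3.71e-05). FOS, a partner in AP-1, rose 6.45-fold, and SMAD4 and SMAD2, which carry the TGF-β signal, 1.70-fold and 1.79-fold. SMAD3, which carries the same signal and was the 1 lower gene of the list, fell 1.72-fold (log2 -0.78; edgeR adjusted p = 0.000687). Of 12 genes of MCL1 and BIM protein turnover, 2 were higher and 3 lower (41.7% called, against 50.4% of all genes), and 5 were lower on the TPM scales. FBXW7, a ubiquitin ligase subunit that acts on MCL1, rose 3.20-fold, and MAPK3, a kinase that phosphorylates BIM, 1.60-fold. DYNLL2 and DYNLL1, dynein light chains that bind BMF and BIM, fell 2.38-fold and 1.53-fold.

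Among the members, the log2 fold change of BBC3 under the inhibitor, 3.60, lay above the 95th percentile of all genes tested, 1.29. The barely detected HRK, at -2.92, lay below the 5th percentile, -2.13. The other members, among them BAX at 0.83 and PMAIP1 at 0.45, lay between these percentiles.

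**Figure D5:**
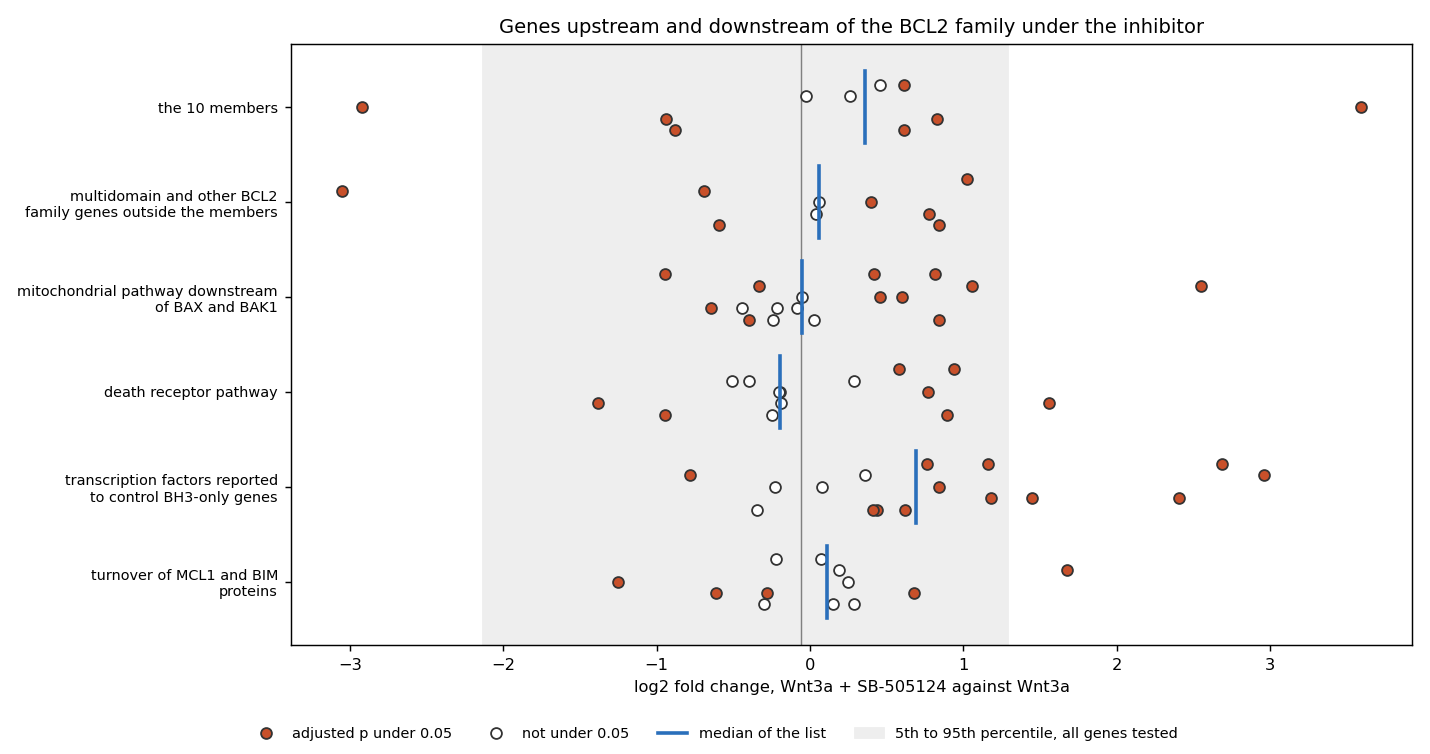
log2 fold change of inhibitor against Wnt3a cells (x axis) for the 10 members and the tested genes of 5 lists, 1 point per gene, filled where the edgeR adjusted p was under 0.05; blue bars are list medians, the grey band spans the 5th to 95th percentile of all genes tested (-2.13 to 1.29). The transcription factors have the highest median, 0.69, and the members lie on both sides of 0.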

How the data were processed

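Reads were processed by the authors on hg38 with RSEM 1.2.31, STAR 2.5.2a, Trimmomatic 0.36 and CASAVA 1.8.2, per the submitters' processing notes. Neither the annotation release nor the strand setting is given in the sources used here. A table for each library holds, per the file headers, expected count, TPM and FPKM of every gene, with a length and an effective length in bases. FPKM values made by the authors were not used. RSEM shares out reads that fit several genes, so expected counts of overlapping or copied genes are estimates.

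Expected counts were rounded, filtered with filterByExpr and scaled by TMM. The 9 libraries of the 3 groups entered 1 quasi-likelihood model of edgeR 4.0.16 in R 4.3.3 (Benjamini-Hochberg adjustment over 17880 genes, threshold 0.05, 2-sided, 6 residual degrees of freedom). Intervals are 95%. Length was tested with limma 3.58.1 on log2 values. TPM levels were described without a test. The scripts were tested on simulated data. Genes are named by rule: all members, and up to 4 genes per list with the smallest adjusted p for inhibitor against Wnt3a. Named outside this rule were SMAD3, as the 1 lower gene of its list, and CASP10, for its DESeq2 call. BID and BIK were also named outside it, as BH3-only genes beside BAD. The members and lists were chosen with earlier results of these data known, and 1 list and 1 gene of another list are not reported here. Loci are from GENCODE 29, in which 10 of 10 member IDs were found with the same version. Alternatives were RLE factors, library totals, 2 other count filters, DESeq2 1.42.0, limma-voom, limma-trend on log2(TPM + 1) and log2(TPM + 0.1), unrounded counts, an effective length offset, only the 2 groups compared, a replicate block, a threshold of 0.01 and leaving out each library.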

Additional observations from a re-analysis of the deposited data

How the results depend on the processing

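With 3 libraries per group, small changes can go uncalled in genes whose replicates scatter. With no inhibitor group without Wnt3a, the inhibitor cannot be told apart from its combination with the ligand. Against Wnt3a, BBC3, BAX, BCL2L1, BMF and BCL2L11 kept their calls in all 22 alternatives run, and BAK1 in 20. The number of members called higher against vehicle was 4, and 2 on log2(TPM + 1) and on log2(TPM + 0.1), where BAX and BCL2L1 were lost. The cause was not tested. Leaving out 1 library gave 4 to 5 members higher and 2 to 3 lower against Wnt3a, and 4 higher and 2 to 3 lower against vehicle. It gave 0 for Wnt3a against vehicle, and 0 to 1 called in transcript length against Wnt3a and 0 in the other comparisons. HRK against vehicle was called without inhibitor replicate 1 (-3.73, edgeR adjusted p = 0.0468). For the lists, 24 of the counts under other settings moved by more than 1.5 times and 636 did not.

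Shares in the summed TPM of the members of a role, with 1 library left out, were as follows in vehicle, Wnt3a and inhibitor cells. BBC3 made up 15.3% to 16.8%, 16.1% to 18.5% and 76.1% to 78.0%. BMF made up 47.3% to 51.3%, 47.3% to 54.4% and 8.04% to 10.7%.

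With the replicate number as a block, 4 members were called higher and 2 lower against Wnt3a, since HRK was lost (-2.69, edgeR adjusted p = 0.0700), and 4 and 2 against vehicle. The number called in transcript length was 0, with BMF at a limma adjusted p of 0.0717. It changed no other call of a member. The labels do not say what a number marks, and the correlation of same-numbered libraries' deviations ran from -0.237 to 0.551, so the numbers were not taken to pair them.

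Small log2 fold changes that were not called changed sign under some settings. For Wnt3a against vehicle, the values on log2(TPM + 1) and log2(TPM + 0.1) were 0.00701 and 0.00734 for MCL1, 0.0887 and 0.0986 for BBC3, and 0.0190 and 0.0194 for BMF, and BBC3 was at 0.00837 with the length offset. With 1 library left out, MCL1 ran from -0.318 to 0.0307, BBC3 from -0.156 to 0.0543, BMF from -0.255 to 0.0181, BAK1 from -0.0252 to 0.192 and HRK from -0.258 (without Wnt3a replicate 2) to 1.29. For inhibitor against Wnt3a, MCL1 was at -0.0523 and -0.0527 on the TPM scales, BCL2 at 0.0471 with the length offset and at -0.146 to 0.0713 with 1 library left out. For inhibitor against vehicle, MCL1 was at -0.0605 with library totals, -0.0453 and -0.0454 on the TPM scales and -0.0338 (without vehicle replicate 2) to 0.270 with 1 library left out. PMAIP1 was at -0.0796 and -0.0897 on the TPM scales. The cause was not tested.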
